A study of Mus musculus with 116 samples.

Results

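The Igkv3 proximal Vκ family is the group of variable segments of the mouse immunoglobulin kappa light chain locus (Igk) that lies closest to the joining segments. It comprised 9 segments, Igkv3-12, Igkv3-10, Igkv3-9, Igkv3-7, Igkv3-5, Igkv3-4, Igkv3-3, Igkv3-2 and Igkv3-1, out of 162 Igk V segments in the RefSeq annotation of GRCm38 (mm10). A junction was assigned to a member when its position on chromosome 6 lay within 100 bp of the annotated segment, and 144218 of the 1374899 rows of the RAG junction lists met that rule. The segments were chosen by their usage in these same libraries, above all by the near absence of some of them in Ku70-/- clone B1. Usage in the libraries of clones B and B1 is therefore given here as a description with no test. Each row is one read of the deposited lists. The reads carry no molecular identifiers, so several rows can stem from one molecule, and the intervals given here cover counting error only.

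V(D)J recombination assembles antigen receptor genes in developing lymphocytes. The RAG recombinase cuts beside a recombination signal sequence (RSS), which is a heptamer and a nonamer separated by a spacer, and leaves a coding end on the side of the segment and a signal end on the side of the RSS. Classical non-homologous end joining then joins the ends. Its Ku70 subunit, with Ku80, holds and protects DNA ends, and its ligase IV (Lig4) seals them. Cells that lack these factors join ends by alternative pathways, which commonly lose more bases and use short stretches of sequence shared by both ends (microhomology).

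The cells were v-Abl pro-B cells, B-cell progenitors immortalised with the v-Abl oncogene. Every line carried the Emu-Bcl2 transgene, a survival gene under a B-lineage enhancer, and every group here was arrested in G1 with STI-571, an Abl kinase inhibitor, at 3 µM for 96 h. No nuclease was added, and the endogenous RAG break at the coding end of Jk1 served as the bait from which joined V segments (prey) were read. The 42 RAG libraries formed 14 groups of 3 replicates. They were WT (clones A and B), Ku70-/- (A1 and B1), Lig4-/- (A1 as 2 separate sets, B1 and C), Lig4-/- with Lig4 added back (Lig4-/- +Lig4, A1 and C), Lig4-/-Ku70-/- (A1_1 and C1) and Lig4-/-Ku70-/- with Ku70 added back (A1_1 and C1). Each group is thus a single line, and clones whose labels share a first letter are called a lineage here, although the labels do not state how they were derived. The labels use B1 for both a Ku70-/- and a Lig4-/- line. Nothing states that replicates came from separate cultures, so p-values measure the spread between these libraries, which may be technical.

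The WT, Ku70-/-, Lig4-/- +Lig4 and Lig4-/-Ku70-/- libraries held 1867 to 305846 rows, whereas the Lig4-/- libraries held 3 to 74 rows and the Lig4-/-Ku70-/- +Ku70 libraries 46 to 612. Repeated reads of one fragment were not equally common in all groups. Distinct fragments made up 43.0% of member rows in WT A, 46.6% in Ku70-/- A1, 63.9% in WT B, 91.3% in Ku70-/- B1, 95.1% in Lig4-/- +Lig4 A1, 92.3% in Lig4-/- +Lig4 C, 53.4% in Lig4-/-Ku70-/- A1_1 and 31.0% in Lig4-/-Ku70-/- C1. Their part in the results was not tested beyond the recounts given in the closing section. The lineage B libraries came from a NextSeq and the others from a MiSeq, so lineage B cannot be told apart from instrument and run.

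The ends that RAG leaves on the members are shown first, since all later results are read from them. For each segment, the last 40 coding bases are in lower case and are followed by the RSS with its heptamer and nonamer in capitals and its spacer in lower case. The letters are the most frequent base at each position of the deposited reads, on the plus strand of mm10 chromosome 6. They run 5′ to 3′ towards Jk1.
Igkv3-12, chr6:70518810-70518877: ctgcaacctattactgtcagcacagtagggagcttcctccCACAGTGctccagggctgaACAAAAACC
Igkv3-10, chr6:70573191-70573258: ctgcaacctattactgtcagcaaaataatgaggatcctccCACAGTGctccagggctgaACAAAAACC
Igkv3-9, chr6:70588738-70588805: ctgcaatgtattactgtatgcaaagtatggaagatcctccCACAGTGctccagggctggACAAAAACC
Igkv3-7, chr6:70607997-70608064: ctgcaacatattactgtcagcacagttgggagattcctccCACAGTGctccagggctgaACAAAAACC
Igkv3-5, chr6:70663856-70663923: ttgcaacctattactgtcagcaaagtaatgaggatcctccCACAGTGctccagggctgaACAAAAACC
Igkv3-4, chr6:70672338-70672405: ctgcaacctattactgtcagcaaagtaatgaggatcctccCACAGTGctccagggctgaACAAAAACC
Igkv3-3, chr6:70687495-70687562: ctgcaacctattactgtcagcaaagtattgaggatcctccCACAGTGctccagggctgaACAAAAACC
Igkv3-2, chr6:70699028-70699095: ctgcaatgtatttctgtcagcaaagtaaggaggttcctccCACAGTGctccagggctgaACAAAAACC
Igkv3-1, chr6:70704138-70704205: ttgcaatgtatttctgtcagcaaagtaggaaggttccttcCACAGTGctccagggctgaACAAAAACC
Jk1, chr6:70722562-70722599: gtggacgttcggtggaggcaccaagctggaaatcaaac

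The Jk1 line is the bait and starts at its coding end. All 9 members carried the heptamer CACAGTG and the nonamer ACAAAAACC with a spacer of 12 bases, and 8 of the 9 spacers were identical. Among the 99 other V segments with a read over their RSS, 79.8% had that heptamer directly at the annotated coding end. That nonamer lay 12 bases after the heptamer's place in 27.3%, and both did so in 26.3%. In some of the remaining segments CACAGTG began 1 or 2 bases beyond the annotated end, which also shifted the nonamer. These shares are therefore lower limits, and they describe letters in this window only. The RSS of Igkv3-3 rests on 1 read and that of Igkv3-9 on as few as 2 reads at a base. At 1 RSS position of Igkv3-2 only 52.9% of reads agreed. Over the last 100 coding bases, the 36 pairs of members were 82% to 98% identical, with a median of 88.5%. Reads of WT A matched the assigned member better than any other member in 99.9% of rows compared, and reads of WT B did so in 98.9%. The sequences compared with were drawn from the same WT coding rows, so these WT shares are no independent check of the assignment. In Ku70-/-, where joins keep less of the V segment, the share was 89.2% in A1 and 91.8% in B1, nearly all of the rest being ties. It was much lower for some members. In A1 it was 47.3% for Igkv3-12 (29 of 55 rows tied), 56.9% for Igkv3-4 (22 of 51 tied) and 72.5% for Igkv3-7 (63 of 229 tied), and all 3 rows compared of Igkv3-3 were tied. For Igkv3-10, Igkv3-5, Igkv3-2 and Igkv3-1 it was at least 97.6% there. In B1 it was 78.6% for Igkv3-12 (536 of 2556 tied) and at least 98.4% for Igkv3-10, Igkv3-9 and Igkv3-1. Tied rows were kept with the member at their mapped position.

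The members span the end of the V array nearest the joining segments. Igkv3-12, the farthest, ends 203.713 kb from Jk1, and Igkv3-1, the nearest, ends 18.385 kb from it. Between them lie Igkv3-10 at 149.332 kb, Igkv3-9 at 133.785 kb, Igkv3-7 at 114.526 kb, Igkv3-5 at 58.667 kb, Igkv3-4 at 50.185 kb, Igkv3-3 at 35.028 kb and Igkv3-2 at 23.495 kb. All 9 are annotated as V segments, and the interleaved pseudogenes Igkv3-11, Igkv3-8 and Igkv3-6 are no members. Igkv3-8 starts 93 bp beyond the end of Igkv3-9, so their windows overlap. All members read as prey in the same orientation, as did 55 V segments in all, whereas 80 read in the other.

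Member joins made up a large and variable share of all rows. The share was 9.08%, 13.8% and 13.8% in the WT A libraries (mean 12.2% ± 2.71, SD, n = 3) and 11.8% in each WT B library (± 0.011). In Ku70-/- it was 6.44%, 10.1% and 9.45% in A1 (8.68% ± 1.97) and 5.08%, 4.81% and 4.85% in B1 (4.91% ± 0.145). WT A overlapped Ku70-/- A1, and WT B lay wholly above Ku70-/- B1. The mean was 6.44% ± 0.159 in Lig4-/- +Lig4 A1, 8.89% ± 0.616 in Lig4-/- +Lig4 C, 4.30% ± 1.04 in Lig4-/-Ku70-/- A1_1 and 3.86% ± 0.248 in Lig4-/-Ku70-/- C1 (SD, n = 3 each).

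Igkv3-10 was the most used member in WT A. It took 3.34%, 6.47% and 6.51% of rows there, the highest mean of all 162 segments, against 2.11%, 4.16% and 3.48% in Ku70-/- A1. In WT B it took 1.72%, 1.73% and 1.72%, the 22nd place, and in Ku70-/- B1 2.69%, 2.50% and 2.53%, the fifth. The low value of each lineage A group came from replicate 1, which was the library sequenced in a run that the other genotype's libraries did not share. Igkv3-7 took 1.86%, 2.23% and 2.07% in WT A and 1.53%, 2.41% and 1.63% in Ku70-/- A1, ranges that overlap. It rose to the third place in WT B, with 3.27%, 3.26% and 3.17%. The median segment took 0.232% of rows in WT A and 0.207% in WT B.

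Igkv3-12 took 0.717%, 0.543% and 0.872% in WT A, 0.520%, 0.388% and 0.360% in Ku70-/- A1, and near 2% in lineage B (2.17%, 2.13% and 2.11% in WT, 1.87%, 1.78% and 1.83% in Ku70-/-). Igkv3-2 took 0.989%, 1.63% and 1.36% in WT A and 1.20%, 1.67% and 2.22% in Ku70-/- A1, again with overlap. Igkv3-1 took 0.904%, 1.57% and 1.31% in WT A and 0.325%, 0.775% and 0.423% in Ku70-/- A1. In lineage B, Igkv3-1 took 0.908%, 0.896% and 0.927% in WT and 0.466%, 0.477% and 0.421% in Ku70-/-. The order of the means therefore differed between the lineages, with Igkv3-10 first in WT A and Igkv3-7 first in WT B.

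Igkv3-3 and Igkv3-9 were the least used members in both WT lines, and Igkv3-4 and Igkv3-5 lay nearer to the rest, with Igkv3-12 between them in WT A. In WT A the means of Igkv3-4, Igkv3-5, Igkv3-3 and Igkv3-9 were 0.781% ± 0.215, 0.562% ± 0.132, 0.0520% ± 0.0342 and 0.0306% ± 0.0104 (SD, n = 3), and Igkv3-4 and Igkv3-5 overlapped over the libraries, as did Igkv3-3 and Igkv3-9. Igkv3-9 and Igkv3-3 stayed at or below 0.292% in every library of at least 1000 rows. Both read with the family's heptamer and nonamer, on few reads, and Igkv3-9 is the member whose spacer differs. The cause of their low usage was not tested. Igkv3-9 had 0 of 15135 rows in Ku70-/- A1, which allows a share of up to 0.0198% (3 rows of the total), and 46 rows in WT A.

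**Figure D1:**
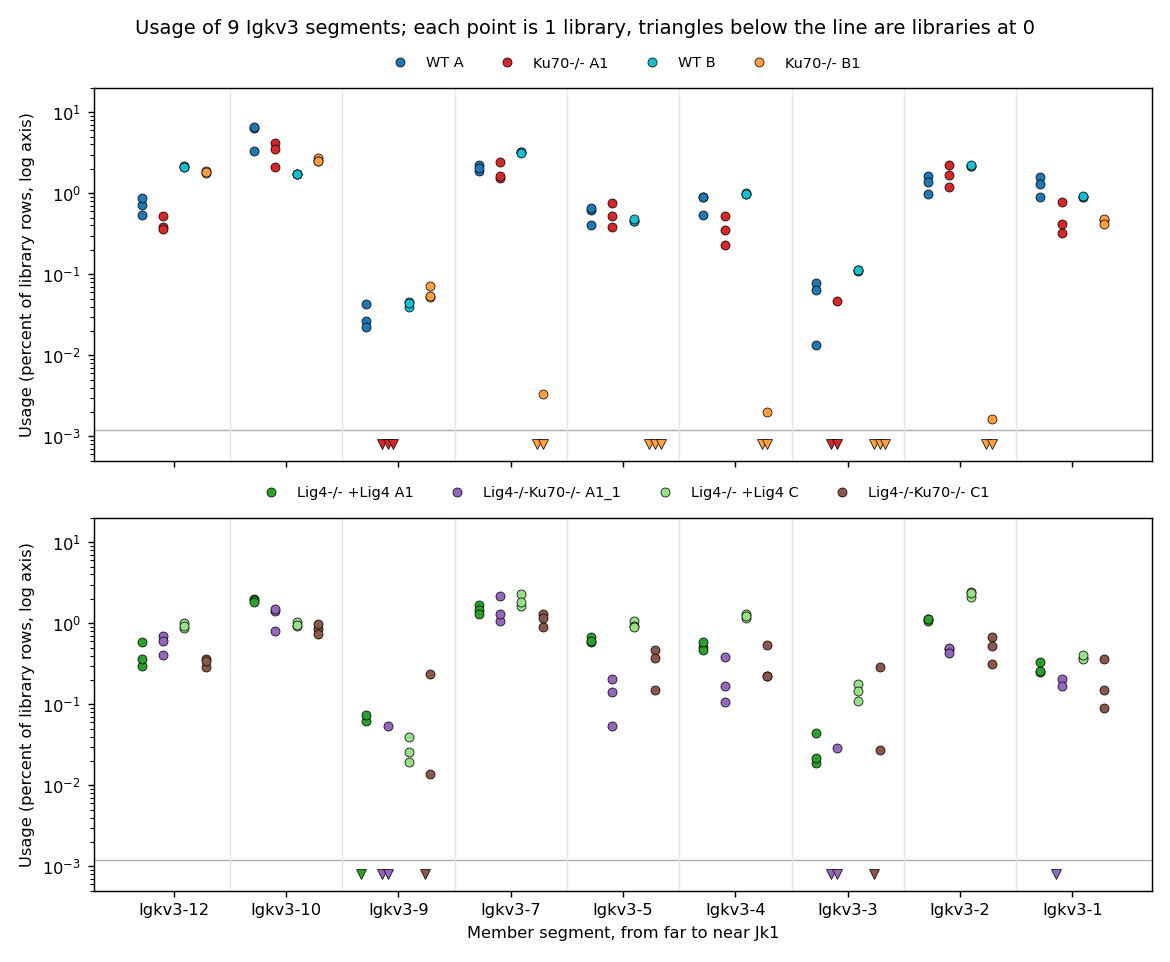
Usage of each member, as percent of all rows of a library on a log axis, with the segments ordered from far to near Jk1; each point is 1 library, and triangles under the grey line are libraries with 0 rows. Ku70-/- B1 has points beside WT B at Igkv3-12, Igkv3-10, Igkv3-9 and Igkv3-1, but at Igkv3-7 to Igkv3-2 its 3 libraries hold 0 to 2 rows of a segment.

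Igkv3-7, Igkv3-5, Igkv3-4, Igkv3-3 and Igkv3-2, which are neighbours among the members, were nearly absent from Ku70-/- B1. Igkv3-7 had 0, 0 and 2 rows in its libraries, Igkv3-4 had 1, 0 and 0, Igkv3-2 had 0, 0 and 1, and Igkv3-5 and Igkv3-3 had none. Together these 5 segments held 4 of 170996 rows (0.00234%, exact Clopper-Pearson 95% interval 0.000637% to 0.00599%) against 62155 of 890003 rows in WT B (6.98%). At the WT B share, 11942 rows would have been expected. The 5 segments were grouped after their values were seen, and the same libraries chose them, so these counts are a description.

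The other 4 members held 4.90% of rows in Ku70-/- B1 and 4.81% in WT B. Of the 101 V segments with at least 0.05% of WT B rows, 5 had a ratio of Ku70-/- B1 to WT B mean usage under 0.1 (4.95% of them), and those were these 5, with ratios of 0 to 0.000667. The other members among the 101 lay well above that limit, with Igkv3-1 at 0.499, Igkv3-12 at 0.855 and Igkv3-10 at 1.49. Igkv3-9 fell below 0.05% in WT B and is not among the 101. It took 0.0430% of rows there and 0.0592% in Ku70-/- B1 (means). The ratios of the 93 segments that are no members ran from 0.367 to 3.70, with a median of 0.965. The 5 segments span 91.631 kb, from 70607437 to 70699067 on chromosome 6, and 114.126 kb separate the flanking segments Igkv3-8 and Igkv3-1. Igkv3-8, a pseudogene, still had 28 rows in Ku70-/- B1 and 144 in WT B.

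The lack of these rows was not seen in the other lines. In lineage A the 5 segments held 3.48%, 4.83% and 5.19% of rows in the Ku70-/- libraries and 4.08%, 5.19% and 5.05% in WT, so the ranges overlapped. They held 3.77% ± 0.162 in Lig4-/- +Lig4 A1, 6.58% ± 0.520 in Lig4-/- +Lig4 C, 2.35% ± 0.842 in Lig4-/-Ku70-/- A1_1 and 2.39% ± 0.231 in Lig4-/-Ku70-/- C1 (SD, n = 3). In the Lig4-/- line labelled B1 they held 10 of 165 rows, with 7, 2 and 1 rows by library (6.06%, exact 95% interval 2.94% to 10.9%), where the WT B share would give 11.5. Whether the segments are present in the DNA of the Ku70-/- B1 line was not tested, since the lists hold only joins.

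The 4 rows in Ku70-/- B1 were not clearly reads of the segments to which they were assigned. The row at Igkv3-2 differed from it at 2 of 87 bases and from Igkv3-1 at 0. One row at Igkv3-7 differed from it at 8 of 79 bases and from Igkv3-10 at 1. The other row at Igkv3-7 and the row at Igkv3-4 matched Igkv3-12 equally well. In Lig4-/- B1, of 8 rows of the 5 segments with at least 30 bases to compare, 6 were closest to their own segment and 2 were tied.

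**Figure D2:**
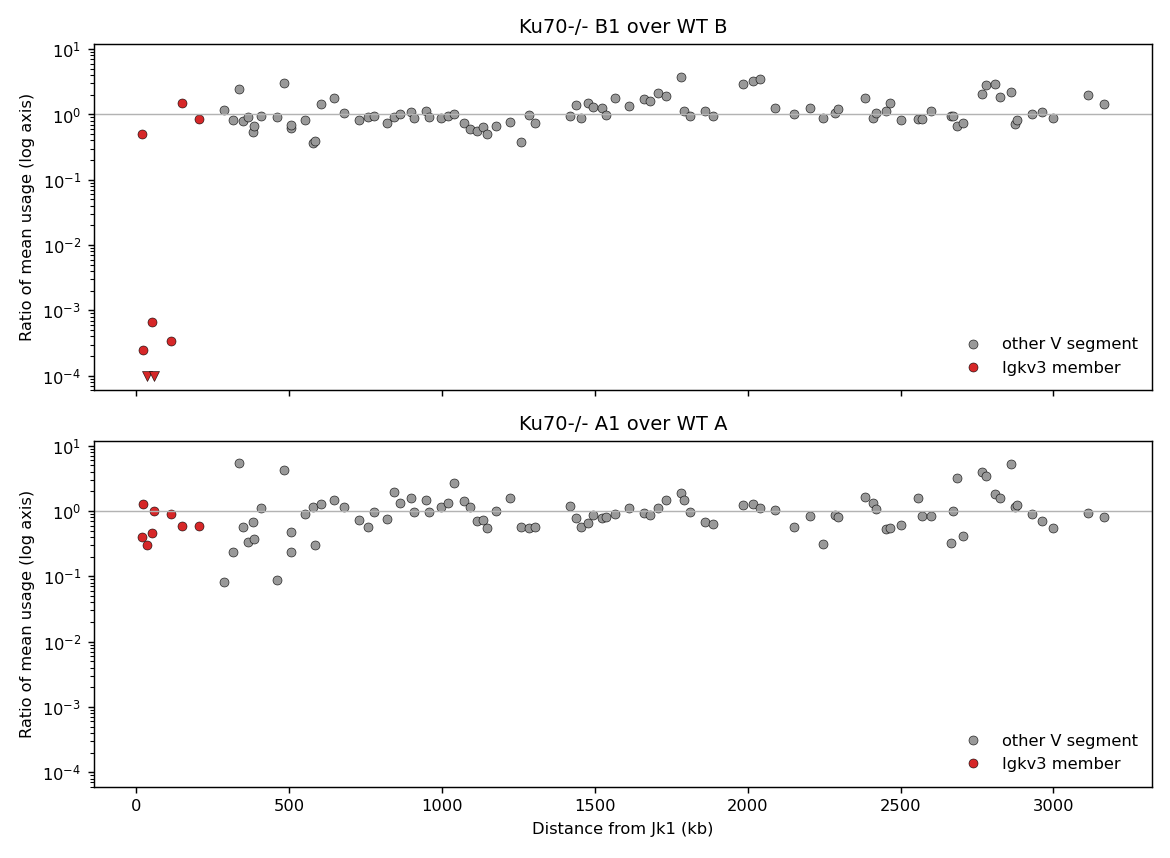
Ratio of mean usage in Ku70-/- to WT for each V segment with at least 0.05% of WT B rows, on a log axis, against its distance from Jk1 in kb, for lineage B (top) and lineage A (bottom); triangles are ratios of 0 drawn at the foot of the axis. In lineage B, 5 members lie at 0.000667 or below and the others between 0.367 and 3.70, whereas in lineage A the 8 members plotted lie between 0.301 and 1.28.

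Usage was fitted in lineage A and between clones of lineages A and C, whose values were not what mainly chose the segments. The segments were nonetheless chosen with results of these libraries known, so the p-values are no independent evidence. Log2 percent usage with 0.5 rows added was fitted with limma over all segments with a mean of at least 20 rows, with Benjamini-Hochberg adjustment. In lineage A, 0 of the 7 members tested were called different between Ku70-/- and WT, where 6 of 94 segments were called (6.38%) and 27 had an unadjusted p under 0.05. The largest fitted difference among members was that of Igkv3-1, -1.34 on the log2 scale (SE 0.38, adjusted p = 0.0977), followed by Igkv3-4 at -1.08 (SE 0.37, adjusted p = 0.114). Igkv3-10 had -0.73 (adjusted p = 0.257), Igkv3-12 -0.71 (adjusted p = 0.158), Igkv3-7 -0.16, Igkv3-5 -0.01 and Igkv3-2 0.35. The members' median was -0.71 beside -0.16 over all segments. For Igkv3-1, Igkv3-4 and Igkv3-12 the unadjusted p was under 0.05.

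Counting did affect these calls, for segments in general as well as for the members. When reads of one fragment were counted once, 15 of 88 segments were called (17.0%), and Igkv3-1 (-1.49, adjusted p = 1.74e-04) and Igkv3-12 (-1.02, adjusted p = 0.0192) passed the limma threshold. When identical junctions were counted once, 33 of 86 were called (38.4%), Igkv3-12 (-1.31), Igkv3-1 (-1.20) and Igkv3-4 (-0.80) among them. Leaving out Ku70-/- A1 replicate 2 also brought Igkv3-1 past it (-1.68, adjusted p = 0.0289), although no other omission did. Over all alternatives the adjusted p of Igkv3-1 ran from 1.74e-04 to 0.245.

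Usage of the members was also compared between clones of one genotype. In Lig4-/- +Lig4, clone C was set against clone A1, and 56 of 92 segments were called (60.9%), 24 higher in C (26.1%) and 32 lower (34.8%). Of the 8 members that passed the filter, 6 were higher and 1 was lower. Igkv3-3 passed it only through clone C, with 39, 37 and 37 rows there against 5, 2 and 3 in A1, so its difference is a description. It took 0.0442%, 0.0189% and 0.0219% in A1 and 0.111%, 0.177% and 0.145% in C. Of the other 7 members, 5 were higher and 1 was lower. Igkv3-10 was the lower one. It went from 1.99%, 1.95% and 1.85% to 0.930%, 1.02% and 0.949%, a fitted difference of -0.997 (SE 0.13, adjusted p = 8.86e-05). Neither pair of groups overlapped.

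Igkv3-4 (1.22), Igkv3-12 (1.20), Igkv3-2 (1.05) and Igkv3-5 (0.62) were also higher in clone C. Igkv3-2 took 1.14%, 1.08% and 1.14% in A1 and 2.14%, 2.46% and 2.37% in C, where it ranked eighth of all segments. Igkv3-7 did not pass (0.38, limma adjusted p = 0.0695), although it did without Lig4-/- +Lig4 C replicate 1 (0.48, adjusted p = 0.0292), and Igkv3-1 (0.45, adjusted p = 0.0267) lost its call in 6 alternatives, with adjusted p up to 0.108. With 5 rows added or with median centring it did not pass. The call of Igkv3-5 was lost when identical junctions were counted once (0.26). The libraries of these clones came from different runs with different numbers of raw reads, so clone and run cannot be told apart.

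In Lig4-/-Ku70-/-, clone C1 was set against clone A1_1, and 18 of 57 segments were called (31.6%) but none of the 3 members tested. Igkv3-10 differed by -0.51 (95% interval -1.21 to 0.20), Igkv3-7 by -0.39 (-1.16 to 0.37) and Igkv3-2 by 0.02 (-0.72 to 0.76). Without repeated fragments Igkv3-10 passed (-0.61, limma adjusted p = 0.00713). Here, too, clone and run cannot be told apart.

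Some V segments followed the members' usage over the 24 libraries of at least 1000 rows. By Spearman's rho of log2 percent usage, the segment most like Igkv3-12 was Igkv6-25 (0.817), that most like Igkv3-10 was Igkv4-78 (0.860), that most like Igkv3-5 was Igkv4-74 (0.724) and that most like Igkv3-1 was Igkv8-19 (0.672). Igkv3-4 and Igkv3-2 were most like each other (0.864), and Igkv3-7 was most like Igkv3-2 (0.782). Igkv3-5, Igkv3-4, Igkv3-2 and Igkv3-7 are among the segments that were nearly absent from Ku70-/- B1, whose libraries are among the 24. The points share clones, runs and depth within a group, so the coefficients are descriptions.

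In WT the members joined Jk1 with little loss and frequent insertions. The median loss from the V coding end was 3 bp in every WT library. Over 10 bp were lost from the V end in 1.06% ± 0.0776 of coding-orientation rows in WT A and 1.46% ± 0.0905 in WT B, and from the Jk1 end in 0.488% and 0.480% of rows. Bases that match neither end were present in 64.3%, 63.8% and 60.1% of rows in WT A and in 42.4%, 41.9% and 42.1% in WT B. Microhomology of at least 2 bp was found in 0.374%, 0.403% and 0.397% of rows in WT A and in 0.937%, 0.917% and 1.09% in WT B.

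In Ku70-/- the ends were shorter, insertions were rare and microhomology was common. Over 10 bp of V were lost in 44.7%, 46.7% and 47.9% of coding rows in A1 and in 38.3%, 38.3% and 38.5% in B1. Over 10 bp of Jk1 were lost in 54.5%, 56.1% and 61.9% of rows in A1 and in 53.8%, 53.8% and 54.1% in B1. Insertions were in 1.01%, 1.56% and 1.82% of rows in A1 and 1.96%, 2.08% and 1.90% in B1. Microhomology was in 11.6%, 18.1% and 17.2% of rows in A1 and 16.2%, 16.1% and 15.1% in B1. On each of these 4 measures no Ku70-/- library overlapped a WT library of its lineage. The B1 values come almost wholly from Igkv3-12, Igkv3-10, Igkv3-9 and Igkv3-1.

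**Figure D3:**
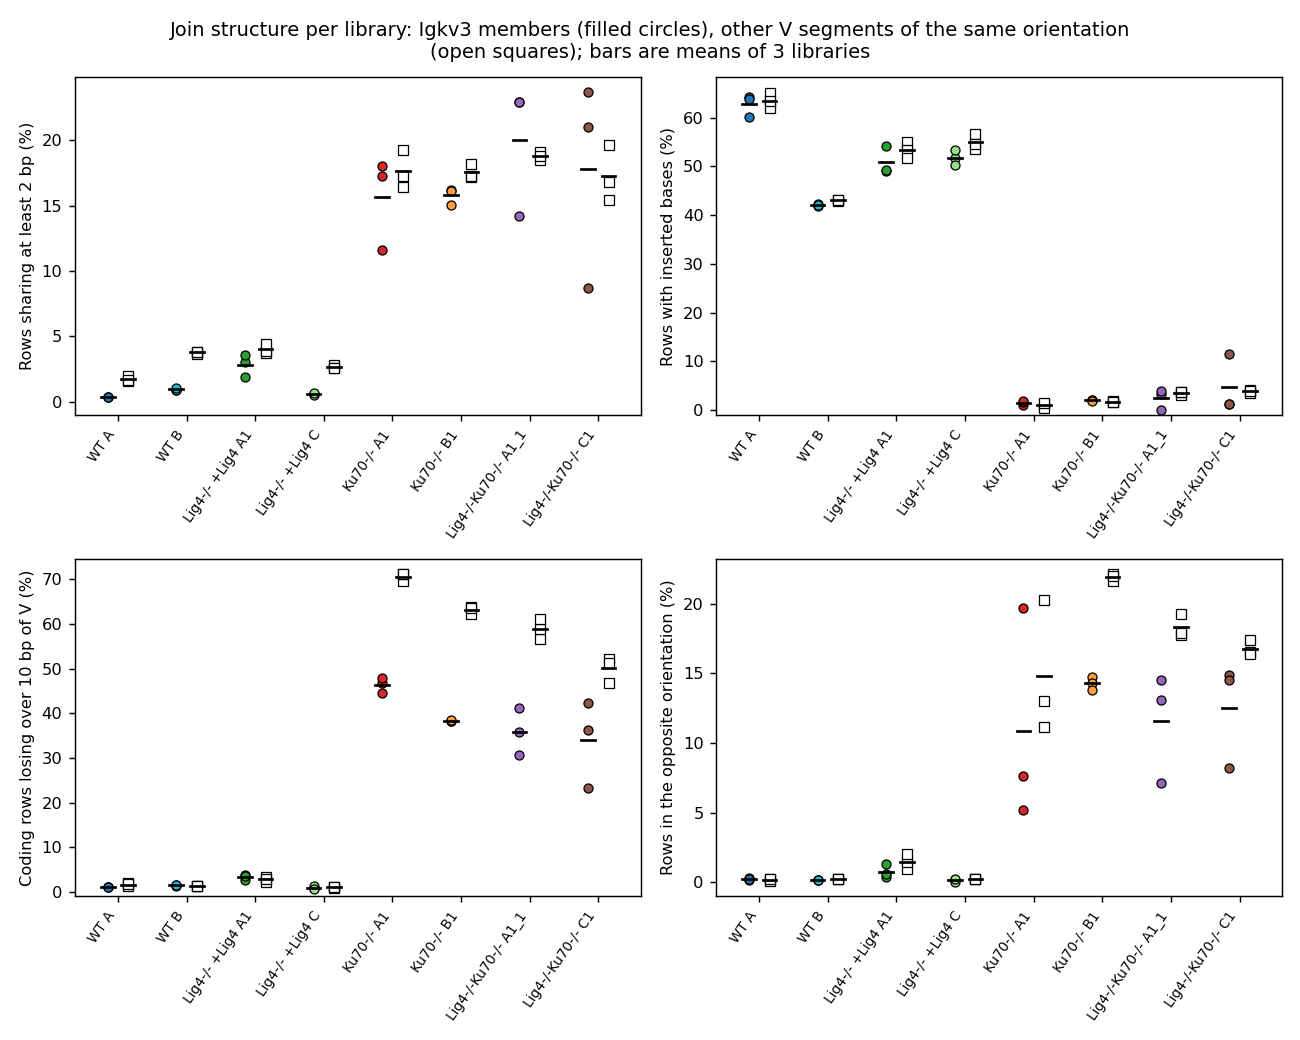
Percent of rows, per library, that share at least 2 bp, carry inserted bases, lose over 10 bp of V (coding orientation) or lie in the opposite orientation, for the Igkv3 members (filled circles) and the other V segments read in the same orientation (open squares); bars are means of 3 libraries. Groups with Ku70 and Lig4 (the 4 on the left of each panel) stay at or below 3.80% in V loss of members, and those without Ku70 (the 4 on the right) lie between 23.2% and 47.9%.

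Recurrent joins show the change in the ends. In each join below, V and Jk1 bases are in lower case, and capitals mark bases that are inserted or that both ends share. The most frequent Igkv3-10 join in WT B lost 3 bp of V and none of Jk1 (1992 of 15283 coding rows, 13.03%), and the most frequent in WT A lost 4 bp of V and carried TC (515 of 8366, 6.16%). In Ku70-/- A1 the leading join lost 4 bp from each end (41 of 495, 8.28%), and in Ku70-/- B1 it lost 4 bp of V and 5 bp of Jk1 with a shared C (213 of 3789, 5.62%). Igkv3-2 in Ku70-/- A1 led with a join through 4 shared bases, GTTC (12 of 251, 4.78%).
Igkv3-10, WT B: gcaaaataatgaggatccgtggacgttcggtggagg
Igkv3-10, WT A: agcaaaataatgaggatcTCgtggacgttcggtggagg
Igkv3-10, Ku70-/- A1: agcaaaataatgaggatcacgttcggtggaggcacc
Igkv3-10, Ku70-/- B1: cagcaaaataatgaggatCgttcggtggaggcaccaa
Igkv3-2, Ku70-/- A1: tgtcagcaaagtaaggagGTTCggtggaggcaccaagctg

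Each of these joins was found in all 3 libraries of its group. Both WT joins keep the whole Jk1 coding end, beginning gtggac, and both Ku70-/- joins of Igkv3-10 begin inside it. Among member rows with at least 2 shared bases, GGA was the most frequent shared run in Ku70-/-, with 30 of 209 rows in A1 (14.4%) and 175 of 1110 in B1 (15.8%), followed by GG (12.4% and 14.1%). GGA was not among the 4 most frequent in WT B, where GAC led with 287 of 975 rows (29.4%).

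Igkv3-10 was the only member with at least 20 rows in every library of both lineages, and it was tested over both with lineage as a term. Its microhomology share was 0.191%, 0.475% and 0.318% in WT A against 6.15%, 17.4% and 11.3% in Ku70-/- A1, and 0.678%, 0.533% and 0.702% in WT B against 14.6%, 15.4% and 15.5% in Ku70-/- B1. The fitted log2 odds were 5.02 higher in Ku70-/- (SE 0.43, limma adjusted p = 1.38e-09), close to the median over all segments of 5.05. All 6 Ku70-/- libraries lay above all 6 WT libraries. Such a call was common, being made for 45 of 46 segments (97.8%).

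The same held for the ends of Igkv3-10. Over 10 bp of V were lost in 1.08%, 0.742% and 0.986% of coding rows in WT A and 41.1%, 46.8% and 38.9% in Ku70-/- A1. In lineage B the values were 1.64%, 1.33% and 1.65% in WT and 41.9%, 40.6% and 42.2% in Ku70-/-. The log2 odds differed by 5.89 (SE 0.23, limma adjusted p = 1.25e-11), with 31 of 31 segments called higher (100.0%) and a median of 6.87. All 6 Ku70-/- libraries again lay above all 6 WT libraries.

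Loss from Jk1 in Igkv3-10 joins ran from 0.0297% to 1.33% of rows in WT and from 41.5% to 53.8% in Ku70-/-. It differed by 7.87 (SE 0.59, limma adjusted p = 1.24e-11), with all 46 segments called higher (100.0%) and a median of 8.85. Insertions in Igkv3-10 joins fell from 63.0% to 65.9% of rows in WT A to at most 0.901% in Ku70-/- A1, and from 42.4% to 44.2% in WT B to 1.82% to 2.07% in Ku70-/- B1. The log2 odds were -6.51 (SE 0.42, limma adjusted p = 4.69e-18), with 46 of 46 called lower (100.0%) and a median of -5.94.

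Lineages A and B were compared directly for Igkv3-10 by the genotype-by-lineage term. The difference between Ku70-/- and WT did not differ detectably between lineages in microhomology (-0.46 for B minus A, SE 0.78, adjusted p = 0.701, limma, 1 of 46 segments called or 2.17%). It also missed the threshold for V loss (-0.76, SE 0.39, adjusted p = 0.263, 1 of 31 called or 3.23%) and Jk1 loss (-0.87, SE 1.21, adjusted p = 0.894, 0 of 46 called or 0.0%, with 1 at an unadjusted p under 0.05). Over all segments the median term was -1.395 for microhomology, with 11 of 46 at an unadjusted limma p under 0.05. For V loss it was -1.012, with 7 of 31 at that level. Few calls here therefore do not show that the lineages are alike. For insertions the term of Igkv3-10 was 2.54 (SE 0.46, limma adjusted p = 0.00128), and 19 of 46 segments were called (41.3%). That size depends on the 0.5 rows added, given the few insertion rows in Ku70-/- A1. These terms were fitted over rows as deposited and in no recount of repeated rows.

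More members could be tested in lineage A alone, where Igkv3-7 and Igkv3-2 had enough rows. Igkv3-7 shared at least 2 bp in 0.912%, 0% and 0.274% of rows in WT A and in 10.6%, 16.1% and 21.2% in Ku70-/- A1 (log2 odds 6.32, SE 1.02, limma adjusted p = 4.35e-07). Igkv3-2 did so in 0.215%, 0.945% and 0.416% in WT A and in 18.9%, 23.2% and 16.9% in Ku70-/- A1 (5.53, SE 0.95, adjusted p = 1.28e-06). With Igkv3-10 (5.25, SE 0.95), all 3 members were called, as were 47 of 48 segments (97.9%), with a median of 5.72.

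V end loss in lineage A rose in the same 3 members. Igkv3-7 lost over 10 bp in 0.684%, 3.62% and 2.19% of coding rows in WT A and in 67.5%, 61.5% and 53.8% in Ku70-/- A1. Igkv3-2 did so in 0%, 0% and 0.426% in WT A and in 41.4%, 36.4% and 44.8% in Ku70-/- A1. The fitted log2 odds were 6.38 for Igkv3-7, 8.88 for Igkv3-2 and 6.26 for Igkv3-10, with limma adjusted p at most 4.42e-06. Of the segments tested, 33 of 33 were called (100.0%), with a median of 7.49. In WT A, Igkv3-2 had such loss in 0 of 463, 0 of 836 and 3 of 705 coding rows. The size of its fitted difference therefore depends on the 0.5 rows added. It does not show a larger change in V loss than in the other members. Within Ku70-/- A1, every Igkv3-7 library lay above every library of Igkv3-2 and Igkv3-10 in this measure. Of the rows compared there, 63 of 229 for Igkv3-7 matched another member equally well. For Igkv3-2 these were 6 of 245 and for Igkv3-10 6 of 475. How many of the tied rows had lost over 10 bp was not counted.

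A lower limit of at least 10 rows in every library, chosen after seeing the data, let further members be tested. Over both lineages, Igkv3-12 and Igkv3-1 (4.19) were called higher in microhomology, with 65 of 66 segments (98.5%), and Igkv3-12 (5.43) in V loss, with 55 of 55 (100.0%). In lineage A, Igkv3-12, Igkv3-1 (4.63) and Igkv3-5 were called in microhomology, with 67 of 69 segments (97.1%). Igkv3-12 (6.44) and Igkv3-5 (5.73) were called there in V loss, with 58 of 58 (100.0%). Igkv3-12 had no microhomology row among its 338, 283 and 463 rows in WT A, and 4 of 16, 4 of 22 and 9 of 23 in Ku70-/- A1, so the size of its fitted difference depends on the 0.5 rows added and is not given. Igkv3-5 had microhomology in 0%, 0% and 16.3% of its 16, 22 and 49 rows in Ku70-/- A1, so only replicate 3 held such rows. Its WT A libraries held 291, 214 and 349 rows. Without such rows, the 0.5 rows added give higher odds in a smaller library. The call of Igkv3-5 therefore does not show a rise in every library, and no size is given. Igkv3-3, Igkv3-4 and Igkv3-9 had too few rows for a test in any of these fits.

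**Figure D4:**
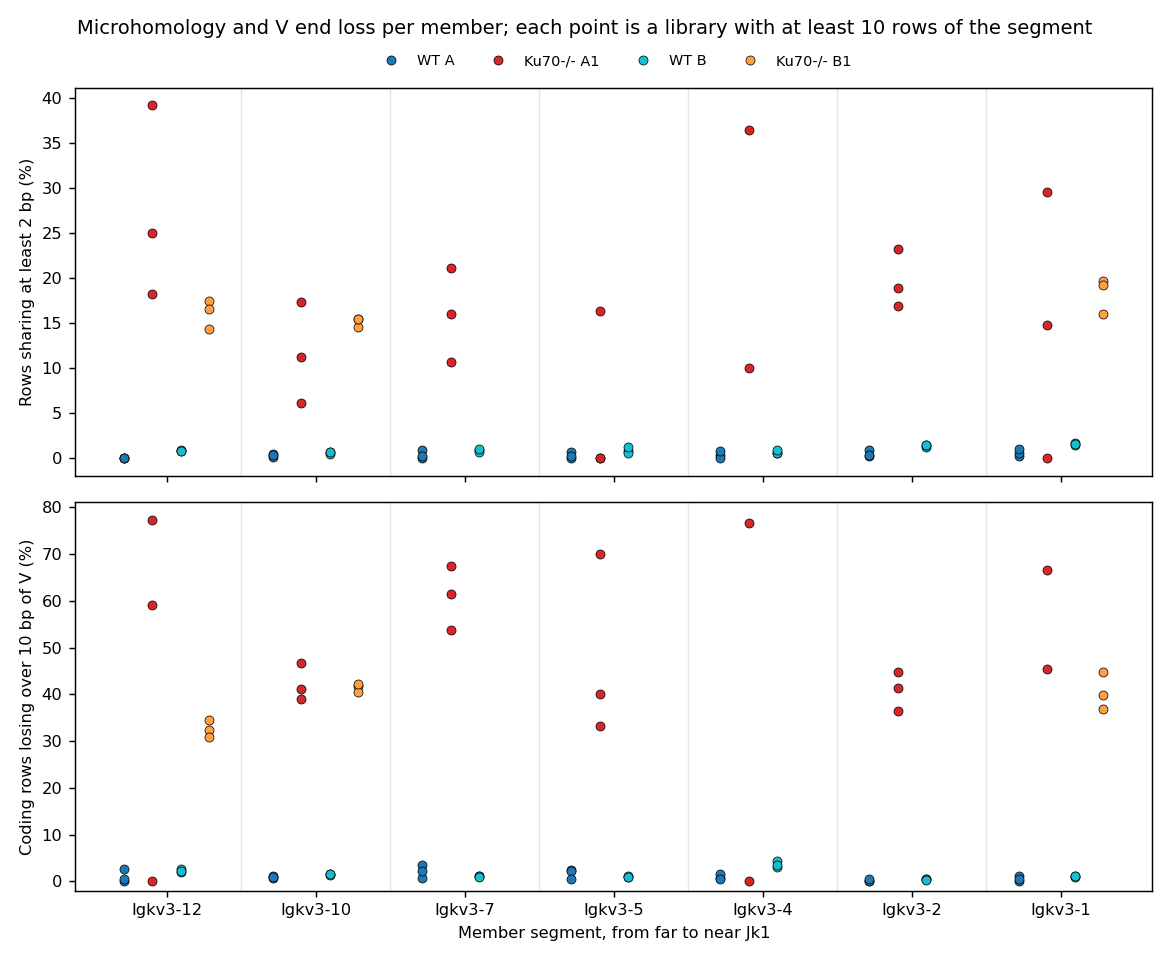
Percent of rows sharing at least 2 bp (top) and percent of coding-orientation rows losing over 10 bp of V (bottom) for 7 members, each point being a library with at least 10 rows of that segment. Igkv3-10 and Igkv3-12 in Ku70-/- B1 vary little between libraries, while in Ku70-/- A1 the V loss of Igkv3-12 runs from 0% to 77.3% and that of Igkv3-4 from 0% to 76.7%, on few rows.

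With their rows pooled as deposited, the members lost over 10 bp of V less often than the other V segments of the same orientation in Ku70-/- cells. Those other segments did so in 69.7%, 71.1% and 71.2% of coding rows in A1 and in 62.2%, 63.8% and 63.6% in B1 (means 70.7% ± 0.856 and 63.2% ± 0.841, SD, n = 3). The members' means were 46.4% ± 1.66 and 38.4% ± 0.139, and they lay below the other segments in all 6 Ku70-/- libraries. The gap was not uniform over families or members. The Igkv6 family had 63.4%, 45.9% and 61.8% in A1, so that 1 library lay within the members' range, and 54.5%, 57.1% and 55.8% in B1. The Igkv8 family had 73.0%, 67.0% and 67.9% in A1 and 62.3%, 61.5% and 64.1% in B1. Among the members, the A1 values of Igkv3-7 given above overlapped those of Igkv6. Only the highest of them lay above the lowest Igkv8 value (67.0%), and part of the Igkv3-7 rows were tied with another member.

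The gap in V loss also depended on how repeated rows were counted. With identical junctions counted once, B1 had 61.05%, 63.82% and 63.43% in the members against 72.27%, 74.53% and 73.85% in the other segments of the same orientation. In A1 the values were then 40.68%, 54.6% and 56.5% against 70.14%, 73.22% and 74.96%. With copies of one fragment counted once, the means were 39.5% against 63.6% in B1 and 43.9% against 71.9% in A1. In each recount all 6 libraries had the members lower, but in B1 the gap was much smaller over distinct junctions than over rows. The members' median V loss was 9 bp in A1 and 7.67 bp in B1 as the mean of the library medians. In WT the members and the other segments of the same orientation were both under 2% (1.06% and 1.62% in A, 1.46% and 1.29% in B). This gap was noticed in these data and was given no test.

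The distribution of losses differed between the lineages at the Jk1 end. In Ku70-/- A1, 15.0% of member rows had lost at least 50 bp of Jk1, whereas no member row of Ku70-/- B1 had. At the V end, at least 50 bp were lost in 9.83% of coding rows in A1 and 2.80% in B1. Lineage B was sequenced on another instrument, and its part in this was not tested.

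**Figure D5:**
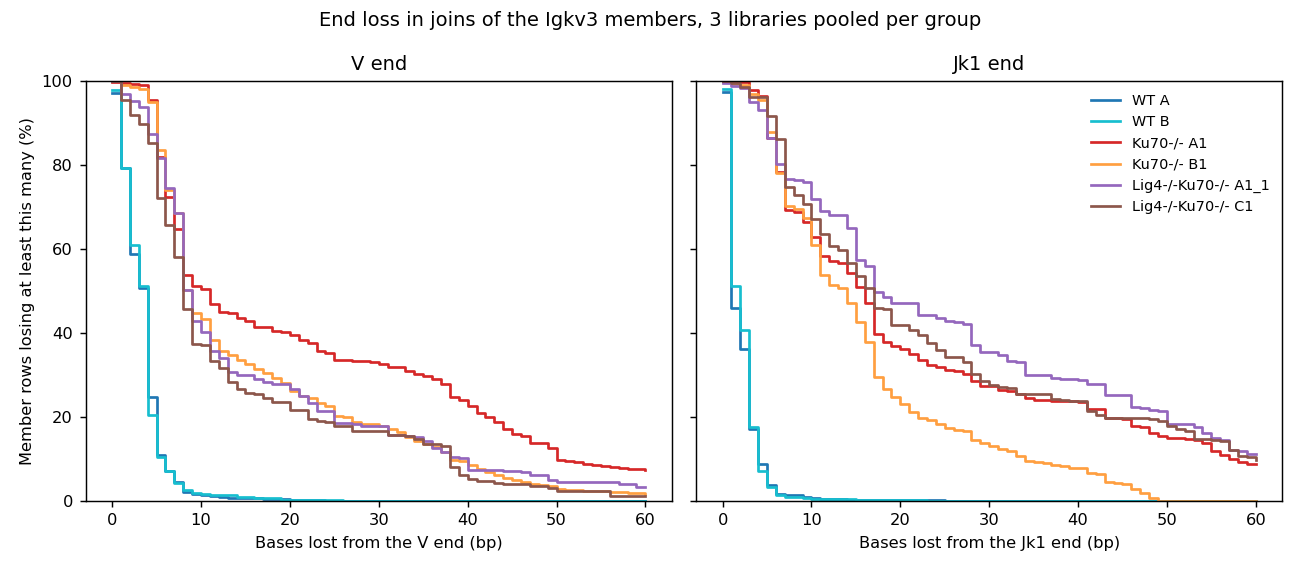
Percent of member rows that lost at least a given number of bases from the V end (left, coding-orientation rows) and from the Jk1 end (right), with the 3 libraries of a group pooled. WT curves fall to near 0% by 10 bp, Ku70-/- and Lig4-/-Ku70-/- curves reach past 20 bp, and the Ku70-/- B1 curve ends before 50 bp at the Jk1 end.

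Rows in the orientation opposite to a coding join were rare in WT and common without Ku70. They made up 0.187%, 0.306% and 0.274% of member rows in WT A and 0.166%, 0.150% and 0.150% in WT B. The values were 19.7%, 5.21% and 7.63% in Ku70-/- A1 and 14.7%, 14.3% and 13.8% in Ku70-/- B1, above WT in every library. In A1 replicate 1 stood well above the other libraries. Other segments of the same orientation had 14.8% ± 4.80 in A1 and 21.9% ± 0.280 in B1 (SD, n = 3), and segments of the other orientation 38.2% and 35.7%.

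In these rows the join lay on the RSS side of the break. The RSS side held 115 of 115 such rows in Ku70-/- A1 and 1171 of 1196 in Ku70-/- B1 (97.9%). Within the 28 bases of the RSS lay 72.2% of them in A1 and 81.2% in B1, at a median of 18 and 15 bases from the cut. In WT B 105 of 163 such rows lay on that side (64.4%).

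Without Lig4 as well as Ku70, the members' microhomology shares overlapped those of Ku70-/- A1, and every V loss share lay below them. Lig4-/-Ku70-/- A1_1 showed microhomology in 23.0%, 14.2% and 22.9% of member rows and V loss over 10 bp in 35.8%, 30.6% and 41.2% of coding rows, and C1 showed 21.1%, 8.68% and 23.7%, and 36.3%, 42.2% and 23.2%. Beside the V loss of Ku70-/- B1 (38.3%, 38.3% and 38.5%), the 41.2% of A1_1 and the 42.2% of C1 lay above and the rest below. Lower V loss was thus not seen against both Ku70-/- lines. Against Ku70-/- A1 in the same runs, only Igkv3-7 had enough rows. Its microhomology was 15.0%, 9.33% and 35.2% in A1_1, on both sides of the Ku70-/- values, with a fitted difference of 0.27 (95% interval -1.38 to 1.91, limma adjusted p = 0.886). Of 27 segments, 0 were called (0.0%) and 1 had an unadjusted p under 0.05. Its V loss was 60.0%, 26.1% and 52.0%, a difference of -0.91 (95% interval -2.30 to 0.49, adjusted p = 0.379), where 2 of 16 segments were called (12.5%), neither a member. These intervals do not show that the genotypes act alike. Same-numbered libraries of these groups shared a run. With the replicate number as a block, Igkv3-7 had 0.27 in microhomology (limma adjusted p = 0.811) and -0.91 in V loss (adjusted p = 0.277), and the calls were 0 of 27 and 0 of 16. The 2 V loss calls were also lost when any single library was left out.

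Against Lig4-/- +Lig4, with lineages A and C fitted together, the same segment differed. Igkv3-7 shared at least 2 bp in 1.60%, 6.41% and 3.95% of rows in Lig4-/- +Lig4 A1 and 0.517%, 0.833% and 0.426% in C, against 15.5%, 0% and 18.5% in Lig4-/-Ku70-/- C1 and the A1_1 values above. The log2 odds were 2.95 higher without Ku70 and Lig4 (SE 0.76, limma adjusted p = 0.00165), with 25 of 26 segments called (96.2%). C1 replicate 2 went against the rest, and so did its insertion share of 19.1%. V loss differed by 5.44 (SE 0.53, adjusted p = 3.12e-07), with 17 of 17 called (100.0%).

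With at least 10 rows per library, Igkv3-10 (3.91) and Igkv3-12 were also higher in microhomology, where 46 of 47 segments were called (97.9%), and Igkv3-10 (5.29) in V loss, where 29 of 29 were (100.0%). Igkv3-12 had 0 such rows in all 3 Lig4-/- +Lig4 A1 libraries, so no size is given for it. The libraries of these groups came from different runs, so genotype and run cannot be told apart here. Lig4-/- with Lig4 added back had a V loss share of 3.35% ± 0.568 in A1 and 0.895% ± 0.292 in C, with insertions in 50.8% ± 2.85 and 51.8% ± 1.63 of member rows (SD, n = 3). The microhomology share in Lig4-/- +Lig4 A1 was 1.89%, 3.05% and 3.61%, above every WT library, and in C 0.582%, 0.502% and 0.666%.

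The Lig4-/- libraries were too small for member values. Their member rows numbered 0 to 20 per library. The Lig4-/-Ku70-/- +Ku70 libraries held 2 member rows each in A1_1 and 20, 31 and 25 in C1. Igkv3-2 led the latter with 29 of 1637 rows (1.77%, exact 95% interval 1.19% to 2.53%), or 3, 8 and 18 rows by library. Those 29 rows held only 6 distinct junctions, so the interval, which treats each row as independent, is too narrow. At this depth no comparison of these groups by member was possible.

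The counting of repeated rows changed some shares by more than 1.5 times. With identical junctions of a library counted once, microhomology in member rows was 1.09% in WT A and 3.30% in WT B, and V loss over 10 bp was 3.20% and 13.8%, against 50.6% in Ku70-/- A1 and 62.8% in Ku70-/- B1. Insertions were in 76.4% of these distinct member junctions in WT A and in 74.7% in WT B. With copies of one fragment counted once, the WT shares were 0.503% and 1.40% for microhomology. The direction of the difference between Ku70-/- and WT for Igkv3-10 was the same in both recounts.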

How the data were processed

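The RAG junction lists of 42 libraries were analysed, out of 116 samples; the Cas9 and ZFN lists were not used here. Per the submitters' processing notes, reads were aligned to mm10 with Bowtie2, and per the labels the libraries were made by LAM-HTGTS (linear amplification and translocation sequencing), taken down to 167151, 377068 or 600000 raw reads, and made without the enzyme blocking step. The authors deposited one row per junction with its position and read offsets and no normalised value; the counts and shares here were computed from those rows.

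Rows were assigned to RefSeq segments of GRCm38 within 100 bp. Microhomology is at least 2 overlapping bases of bait and prey on the read, and an insertion at least 1 unaligned base between them. End loss is counted from the segment's coding end, over 10 bp in the main setting. Shares entered as log2 odds with 0.5 rows added, for segments with at least 20 rows in every library, and limma 3.58.1 (R 4.3.3) with Benjamini-Hochberg adjustment over all segments tested called at an adjusted p of 0.05. Tests are two-sided, and 95% intervals are limma's. Python 3.11.15, pandas 2.3.3, numpy 2.4.6 and scipy 1.17.1 did the rest.

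On simulated data of lineage A usage (93 segments), 6 of 6 segments lowered and 5 of 5 raised by 2 log2 units were called, and 1 of 82 others. That change is larger than any member difference fitted in lineage A, and the simulated spread was a set value. The simulation therefore does not show how often changes of the members' size would be called. The members, the lists and the tests were chosen with earlier results of these data known. All 9 members are named; other segments are named only where they lie between members, are the most like a member in usage, or belong to the Igkv6 and Igkv8 comparison families. Replicates of every group with over 1000 rows per library differed by more than counting noise and were kept apart. The lists hold no expression values, so the pro-B label was not checked against markers.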

Additional observations from a re-analysis of the deposited data

Results flagged for a closer look

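Over rows as deposited, the difference in insertion share between Ku70-/- and WT at Igkv3-10 was not the same in both lineages. It was 2.54 smaller in size on the log2 odds scale in lineage B than in lineage A (SE 0.46, limma adjusted p = 0.00128 for the genotype-by-lineage term). The Ku70-/- A1 libraries held insertions in only 0 of 65, 1 of 236 and 2 of 222 rows, so this size depends on the 0.5 rows added. The WT libraries had insertions in 65.9%, 64.0% and 63.0% of Igkv3-10 rows in clone A and 44.2%, 42.4% and 43.9% in clone B, and the Ku70-/- libraries in 0%, 0.424% and 0.901% in A1 and 2.07%, 2.00% and 1.82% in B1. The same term was called for 41.3% of the segments tested, so it is not particular to Igkv3-10. It was not fitted in the recounts. Identical junctions counted once gave insertions in 76.4% of all member rows in WT A and 74.7% in WT B. The values were then 3.46% in Ku70-/- A1 and 4.35% in Ku70-/- B1. Copies of a fragment counted once gave 64.8% in WT A, 50.0% in WT B, 2.92% in Ku70-/- A1 and 2.10% in Ku70-/- B1. The gap between the lineages therefore depended on how repeated rows were counted. Lineage, instrument and run cannot be told apart here.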

How the results depend on the processing

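No called result changed direction. Fitted differences that were not called changed sign with the setting for usage of Igkv3-5 (-0.27 to 0.23) and Igkv3-7 (-0.36 to 0.06) in lineage A, for usage of Igkv3-2 between C1 and A1_1 (-0.15 to 0.32), and for microhomology and V loss of Igkv3-7 between Lig4-/-Ku70-/- and Ku70-/-. With identical junctions counted once, with copies of one fragment counted once (added after seeing the data) and with at least 50 rows per library, Ku70-/- against WT called 15, 18 and 16 segments for microhomology, Jk1 loss and insertions, and for microhomology in lineage A, and 8, 10 and 9 for V loss, in both lineages or lineage A. Against Lig4-/- +Lig4, Lig4-/-Ku70-/- gave 11, 12 and 8 for microhomology, and 4 and 4 for V loss in the 2 recounts. With at least 10 rows (also added later) the counts were 55 and 58 for V loss of Ku70-/-, in both lineages and in A, and 46 and 29 for Lig4-/-Ku70-/-. With lineage A libraries of shared runs, Ku70-/- against WT called 59 for V loss, in both lineages and in A, and 70 each for Jk1 loss and insertions. The 2 V loss calls of Lig4-/-Ku70-/- against Ku70-/- became 0, of 16 segments with the replicate block, over 5 bp or over 20 bp lost and of 38 with at least 10 rows. Usage calls in lineage A, 6 of 94 segments, were 33 of 86 with distinct junctions, 15 of 88 with distinct fragments, 0 of 93 with a 30 bp window, 0 of 95 with shared runs and 15 of 126 without the filter on low counts. Usage calls of Lig4-/- +Lig4 C against A1 were 30 of 89 with distinct junctions, and those of C1 against A1_1 were 6 of 57 with the replicate block and 6 of 116 without the filter. The cause of these last moves was not tested.

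Leaving out 1 library gave 45 to 65 calls for microhomology of Ku70-/- against WT, 31 to 56 for V loss, 46 to 66 for Jk1 loss and 46 to 66 for insertions. In lineage A it gave 47 to 68 for microhomology, 33 to 59 for V loss and 2 to 9 for usage. Lig4-/-Ku70-/- against Ku70-/- gave 0 for microhomology and 0 for V loss each time, and against Lig4-/- +Lig4 25 to 36 and 17 to 25. Clone comparisons gave 44 to 54 for Lig4-/- +Lig4 and 7 to 15 for Lig4-/-Ku70-/-. Among single segments and shares, 663 values kept their side of the threshold or moved within the spread, 8 gained a call, 7 lost one and 44 shares moved.

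Same-numbered libraries shared a run only in part (in lineage A, all 3 of Ku70-/- and Lig4-/-Ku70-/-, and replicates 2 and 3 of WT), and correlations of their deviations ran from -0.433 to 0.392, so the block was kept as an alternative. With the replicate block, usage calls in lineage A were 4 and those of Lig4-/- +Lig4 52. With exact permutation the smallest two-sided p is 0.005 over both lineages and 0.1 for 3 libraries against 3. Groups of under 1000 rows per library limit what can be said of Lig4-/- and of the Ku70 add-back lines.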
